A study of Mus musculus with 2 samples.

Results

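Cluster 19 of the retinal bipolar cells was defined by taking, among cells that the authors named bipolar cells (BC), the cluster numbers above 13 and keeping the one with the second most BC. Above 13 the clusters were 18 (374 BC), 19 (319), 20 (309) and 21 (199). Cluster 19 held 319 of 5743 BC and of 30943 cells in all, 194 in the Ptbp1-Ctrl library and 125 in the Ptbp1-KO library, and every cell of that number was named BC. Whole retinas of 30-day-old mice (P30) were dissociated with papain for single-cell RNA sequencing in droplets, with 1 library for the control, genotype Chx10-Cre, and 1 library for the mutant, genotype Chx10-Cre;Ptbp1lox/lox. Both groups carried Chx10-Cre, a transgene that expresses Cre recombinase in retinal progenitor cells, and in the mutant their descendants, BC included, lose the floxed promoter and opening exon of Ptbp1. The methods give 1 female mouse per genotype. In the cluster, Xist, which is expressed in female cells, had 0 UMIs in both libraries, while the Y-linked gene Uty had 171 UMIs in control and 139 in mutant cells, and Eif2s3y had 129 and 115, so the cells of both libraries went against the stated sex and were alike in it. With 1 library per genotype no difference has a replicate check, and all values below describe these libraries, with intervals at 95% that cover counting error only.

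Bipolar cells carry signals from photoreceptors to amacrine and ganglion cells through ribbon synapses, which release glutamate continuously. ON bipolar cells detect photoreceptor glutamate with the metabotropic receptor mGluR6 (Grm6), whose G protein cascade holds the cation channel Trpm1 closed in the dark, while OFF bipolar cells use ionotropic receptors such as the kainate receptor subunit Grik1. In the mouse retina, cone bipolar types differ in the depth at which their axons end and in the adhesion molecules, transcription factors and channels they use. Type 7 is an ON cone bipolar type that is known to combine Grm6 with Vsx1, a homeobox transcription factor that is otherwise typical of several OFF types.

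The deposited cells carried unique molecular identifiers (UMIs), each standing for 1 captured RNA molecule, and levels are given as UMIs per 1000000 UMIs of the summed cells (CPM). Summed over cells, cluster 19 held 782943 UMIs in control cells (Ptbp1-Ctrl) and 723421 in mutant cells (Ptbp1-KO). Pairs of values below give the control first. Its cells were deep for BC, second of the 10 BC clusters in median UMIs in both libraries. The median was 3881 UMIs per cell (range 1851 to 8681) in Ptbp1-Ctrl and 5616 (1946 to 9998) in Ptbp1-KO, a ratio of 1.45, against 2721 and 3745.5 in the other BC, a ratio of 1.38. No cell barcode of the cluster occurred in both libraries, whereas 63 did over all cells. The median share of mitochondrial UMIs was 2.56% and 2.49%.

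Cluster 19 was a smaller part of the BC in the Ptbp1-KO library than in the Ptbp1-Ctrl library. It made up 6.07% of BC in Ptbp1-Ctrl (95% Clopper-Pearson interval 5.27 to 6.96, 194 of 3194) and 4.90% in Ptbp1-KO (4.10 to 5.82, 125 of 2549), a ratio of 0.807. These intervals overlapped. As a share of all cells it was 1.18% (1.02 to 1.36) and 0.861% (0.717 to 1.02), and with rods left out of the total 3.05% (2.64 to 3.50) and 2.39% (2.0 to 2.85). Over the other 9 BC clusters the same ratio ran from 0.708 in cluster 11 to 1.17 in cluster 20, so that the ratio of cluster 19 lay inside the range of the others. Fewer cells of a type in a dissociated retina and fewer cells surviving dissociation cannot be told apart in these data.

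**Figure D1:**
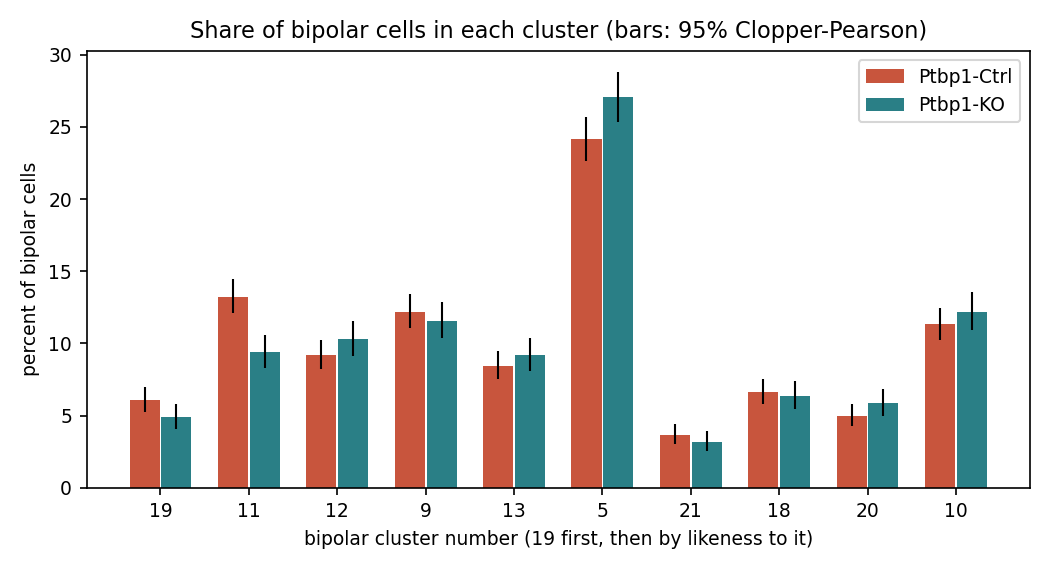
Share of BC in each of the 10 BC clusters, in percent, for Ptbp1-Ctrl and Ptbp1-KO, with 95% Clopper-Pearson intervals as bars and clusters ordered by their likeness to cluster 19. Cluster 19 stands at 6.07% and 4.90% with overlapping intervals, and cluster 11 shows the lowest ratio between the libraries, from 13.2% to 9.38%.

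Of 4276 genes with at least 50 CPM in both libraries in the cluster or in the other BC, 163 were higher in cluster 19 by 2-fold or more in both libraries (3.81%) and 251 were lower (5.87%), with a median log2 ratio of 0.03. The clusters had been made from the same genes, so these ratios are a description with no test, and the counts below are to be read against those shares.

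The markers placed cluster 19 with type 7-like ON cone bipolar cells. Igfn1, which encodes an immunoglobulin-like and fibronectin domain protein and marks type 7, was at 309 CPM in control cells (271 to 351) and 328 CPM in mutant cells (287 to 372), against 8.33 and 15.7 CPM in the other BC. Vsx1 was at 602 CPM in control cells (548 to 658) and 630.3 CPM in mutant cells (574 to 691), against 78.6 and 68.4 CPM in the other BC. Both genes were higher here than in any other BC cluster of either library, the next being cluster 20 for Igfn1 (48.1 and 73.8 CPM) and cluster 11 for Vsx1 (335 and 318 CPM). The ON receptor gene Grm6 was at 465 and 423 CPM and Isl1, a LIM homeobox factor of ON bipolar cells, at 361 and 406 CPM, within 2-fold of the other BC (346 and 336 CPM for Grm6, 447 and 488 CPM for Isl1). Grik1 was lower than in the 9 other BC clusters in both libraries, at 14.0 and 11.1 CPM from 11 UMIs in control cells and 8 in mutant cells, against 1637 and 1325 CPM in the other BC.

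Some markers went against a plain cone bipolar profile. Scgn, the calcium-binding protein secretagogin that marks most cone bipolar types, was at 62.6 CPM in control cells (46.3 to 82.7) and 95.4 CPM in mutant cells (74.2 to 121), against 319 and 346 CPM in the other BC, a mean log2 ratio of −2.10. It ranked eighth of the 10 clusters, above only clusters 5 and 10, which were the clusters highest for the rod bipolar marker Prkca. Of the other cone bipolar markers, the zinc finger homeobox gene Zfhx4 was at 128 and 129 CPM against 436 and 382 CPM, and the LIM homeobox gene Lhx4 at 15.3 and 8.29 CPM against 179.8 and 189.9 CPM. Trpm1 was at 718 CPM in control cells and 805 CPM in mutant cells against 1569.7 and 1767 CPM, a mean log2 ratio of −1.13, which was within 2-fold when the other clusters were weighted equally. All 6 rod bipolar markers were lower than in the other BC by 2-fold or more in both libraries. They included Prkca, protein kinase C alpha, at 81.7 and 65.0 CPM against 2683 and 2832 CPM. The homeobox gene Sebox had 2 UMIs in control cells and 1 in mutant cells.

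Markers of other bipolar types were mixed. Of 4 type 1A markers 2 were higher, Vsx1 and the protocadherin gene Pcdh17 (533 and 380.1 CPM against 91.4 and 97.7 CPM), and 2 were lower, Grik1 and Tacr3. Several markers of further types had few UMIs. Cabp5, a calcium-binding protein of type 5 and several OFF types, was at 24.3 and 24.9 CPM against 432 and 506 CPM, and Sox6, used for type 5A, at 34.5 and 31.8 CPM against 243 and 271 CPM. Syt2, a synaptotagmin used for types 2 and 6, had 0 UMIs in control cells and 1 in mutant cells, and Cpne9, a copine used for type 9, had 2 UMIs in control cells and 0 in mutant cells. The OFF markers Neto1, an auxiliary kainate receptor subunit, and Tacr3, a tachykinin receptor, were nearly absent. Neto1 had 1 UMIs in control cells and 0 in mutant cells, and Tacr3 had 2 UMIs in control cells and 1 in mutant cells. Serpini1, the protease inhibitor neuroserpin used for types 8 and 9, was present at 126 and 77.4 CPM against 69.1 and 64.4 CPM.

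**Figure D2:**
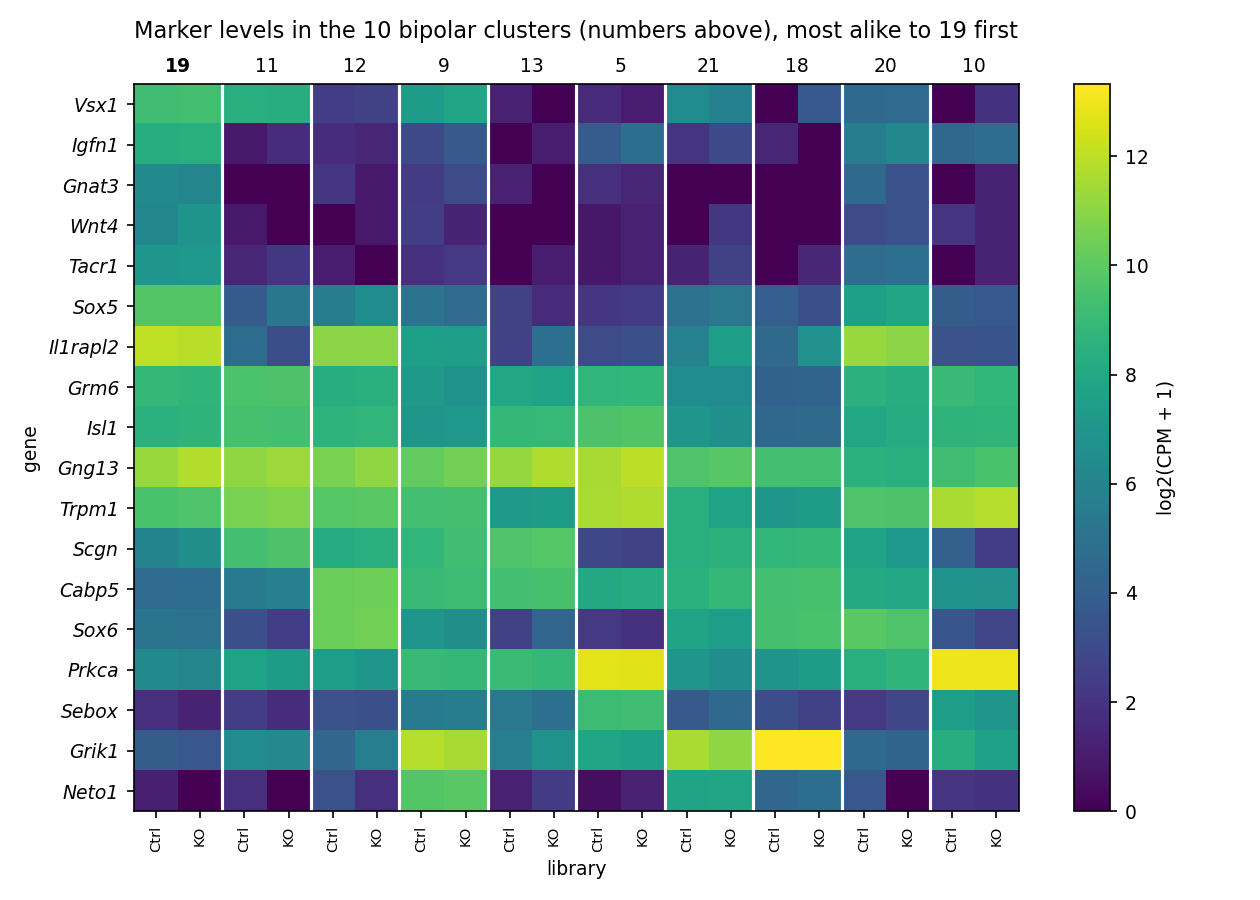
Levels of 18 marker and leading genes as log2(CPM + 1) in the 10 BC clusters (numbers above the columns), each with its Ptbp1-Ctrl and Ptbp1-KO library, ordered by likeness to cluster 19. Cluster 19 at the left has the highest Vsx1 and Igfn1, together with Grm6 and Isl1 and with low Scgn, Cabp5, Prkca and Grik1.

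Of the 5 type 7 markers fixed for naming, Igfn1 and Vsx1 were thus higher, Scgn was lower, and Grm6 and Isl1 were within 2-fold. Of 7 ON markers that passed the minimum 1 was lower, Trpm1, and of 5 OFF markers 3 were lower and 1, Vsx1, was higher.

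The markers were spread over nearly all cells of the cluster. A UMI of Igfn1 or Vsx1 was seen in 186 of 194 cells of Ptbp1-Ctrl and 122 of 125 cells of Ptbp1-KO, and UMIs of both in 110 and 100 cells. The shares for Igfn1 alone were 68.6% and 82.4%, at median depths of 3881 and 5616 UMIs, against 2.17% and 4.17% in the other BC and 0.129% and 0.269% in rods, which served as the background type (1088 and 1288 UMIs). With every cell thinned to 1000 UMIs, which left out no cell of the cluster, 125 and 42 of the other BC and 4155 and 3126 rods, Igfn1 was seen in 29.9% (23.5 to 36.9) of Ptbp1-Ctrl cells and 24.8% (17.5 to 33.3) of Ptbp1-KO cells, against 0.0678% and 0.162% of rods. Thinned shares for Vsx1 were 39.7% (32.8 to 46.9) of Ptbp1-Ctrl cells and 44% (35.1 to 53.2) of Ptbp1-KO cells. For Grik1 they were 1.03% and 0.800% in the cluster and 1.56% and 1.55% in rods, so Grik1 was at the background level. Scgn, at 7.73% and 9.60%, was above the rods (0.525% and 1.64%) and below the other BC (23.0% and 22.2%).

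**Figure D3:**
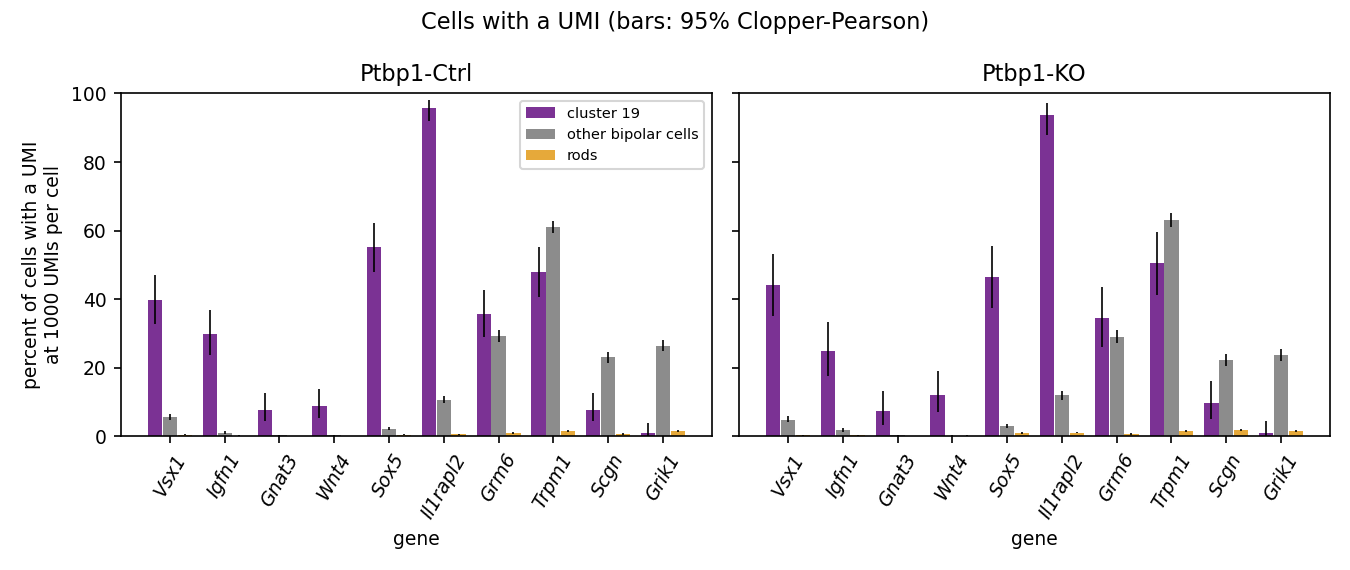
Percent of cells with a UMI of 10 genes after thinning each cell to 1000 UMIs, in cluster 19, the other BC and rods, for Ptbp1-Ctrl (left) and Ptbp1-KO (right), with 95% Clopper-Pearson intervals as bars. Il1rapl2 is seen in 95.9% and 93.6% of cluster 19, while rods stay under 2% for every gene shown.

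Cluster 19 was then set against the sum of the other BC, separately in each library. Of the 163 higher genes, the 25 with the highest mean ratio were named. Among these 25 were genes of signalling between cells. Wnt4, a secreted Wnt ligand, was at 74.1 CPM in control cells and 116 CPM in mutant cells against 1.55 and 1.37 CPM in the other BC, log2 ratios of 5.57 and 6.41. Tacr1, the substance P receptor, was at 125 and 134 CPM against 1.89 and 2.84 CPM. Gfra1, the GDNF co-receptor, was at 129 and 89.9 CPM against 5.0 and 4.73 CPM, and Adra2c, an alpha2 adrenergic receptor, at 72.8 and 85.7 CPM against 5.77 and 4.20 CPM. Plxnc1, a semaphorin receptor, was at 142 and 119 CPM against 13.4 and 15.8 CPM, and Disp1, which releases Hedgehog ligands from cells, at 125 and 162 CPM against 9.55 and 9.77 CPM. Gnat3, the G protein alpha subunit known as gustducin, was at 79.2 and 65.0 CPM against 2.44 and 2.10 CPM, with a UMI in 22.7% and 20% of the cluster's cells.

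The more abundant leading genes had varied roles. Il1rapl2, a synaptic adhesion protein of the interleukin-1 receptor family, was at 4243 CPM in control cells and 3824 CPM in mutant cells and had a UMI in all 319 cells, against 325 and 364 CPM in the other BC. It was not restricted to the cluster, since clusters 12 (2083 and 2022 CPM) and 20 (2425 and 2035 CPM) also had it. Hs3st4, a heparan sulfate sulfotransferase, was at 2115 and 1805 CPM against 216 and 233 CPM, and Reln, the secreted matrix protein reelin, at 1742 and 1554 CPM against 239.9 and 162 CPM. Fn1, fibronectin, was at 298 and 534 CPM against 18.8 and 26.9 CPM. Palld, the actin-bundling protein palladin, was at 539 and 621 CPM against 16.3 and 20.2 CPM, and 4930512H18Rik, an antisense RNA annotated across its start, stood at 63.9 and 124 CPM against 0.888 and 2.42 CPM. Reads of the pair can be told apart only where counting used strand, which was not given in the sources used here. Kcnab1, a potassium channel beta subunit, was at 1055 and 1205 CPM against 145 and 141 CPM, and Adcy2, an adenylyl cyclase, at 949 and 832 CPM against 118 and 118 CPM. The transcription factor Sox5 was at 867 and 852 CPM against 23.5 and 30.8 CPM, and its next highest cluster was 20 (193 and 237 CPM).

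The remaining leading genes were Cntnap5c (a contactin-associated protein), Sec1 (a fucosyltransferase), Trhde (the enzyme that degrades thyrotropin-releasing hormone), Dsel, Gm13601, Gm35835 and A330015K06Rik. Their mean log2 ratios lay between 3.0 for A330015K06Rik and 4.39 for Cntnap5c. Gm13601 and A330015K06Rik are annotated as antisense RNAs and Gm35835 as a lincRNA. A330015K06Rik lies inside Kcnab1 and Gm13601 inside Xirp2, each on the opposite strand, so the limit given for Palld holds for these pairs too. The 10 genes lowest in the cluster were Grik1 and 9 others, several of them adhesion genes. Lrrtm4, a leucine-rich repeat protein of the postsynaptic membrane, was at 14.0 and 16.6 CPM against 3548 and 4009 CPM, a mean log2 ratio of −7.95, and the contactin Cntn4 at 19.2 and 30.4 CPM against 1909 and 1893 CPM. The neurexin ligand Nxph1 had 0 UMIs in control cells and 1 in mutant cells, against 298 and 291 CPM in the other BC. With its count of 0 set to the 3 counts it allows, its log2 ratio in Ptbp1-Ctrl was at most −6.28. The adrenergic receptor gene Adrb1, the phosphatase gene Ptprr, the potassium channel subunit gene Kcnmb2, Sebox, Cntnap5a and Cep112 had 0 to 5 UMIs in each library, against at least 151 CPM (Adrb1 in Ptbp1-Ctrl) in the other BC.

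**Figure D4:**
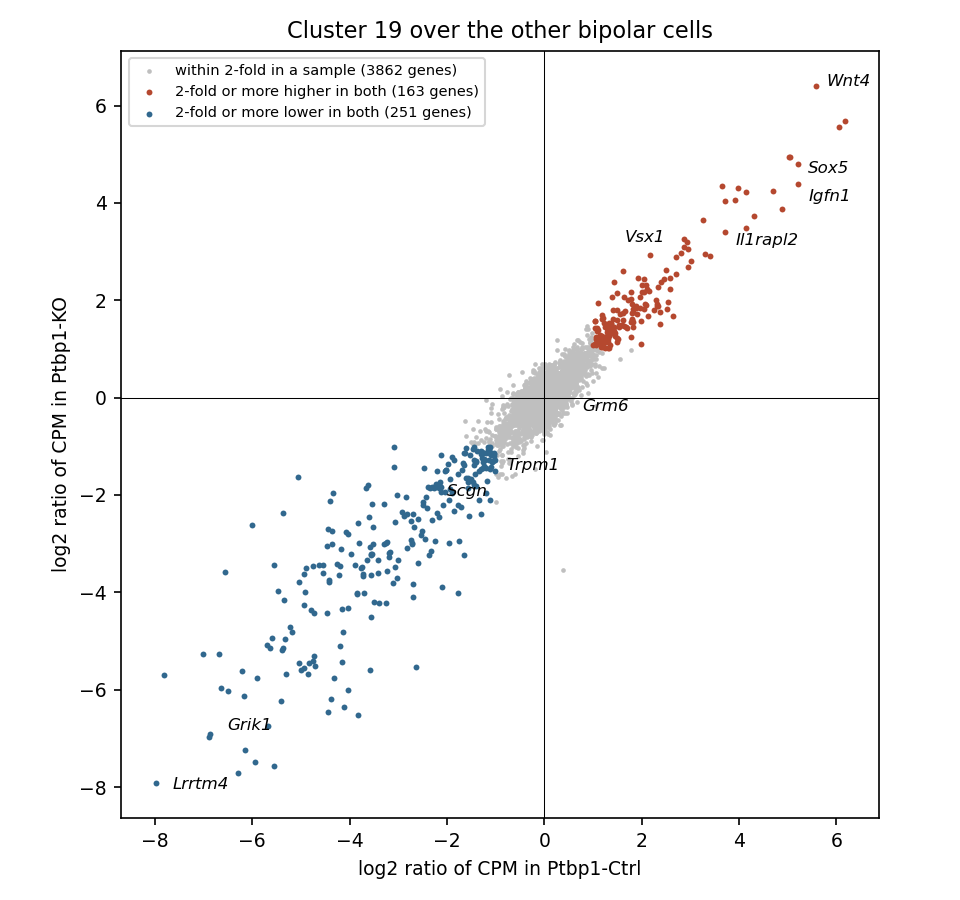
Log2 ratio of CPM in cluster 19 over the other BC for 4276 genes, in Ptbp1-Ctrl (x axis) and Ptbp1-KO (y axis), with genes past 2-fold in both libraries coloured. Wnt4 at 5.57 and 6.41 lies at the upper right, Lrrtm4 at −7.98 and −7.92 at the lower left, and Grm6 lies within 2-fold.

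Promoters are shown for Igfn1 and Vsx1, the type 7 markers that were higher in the cluster, and for Gnat3, a leading gene that is not one of the naming markers. Each run covers 250 bases before to 50 bases after the annotated start, 5′ to 3′ (RefSeq, GRCm38.p6), and capitals mark CAGCTG, an E-box that reads the same on both strands. The runs lie at chr1:136006293-136006592 on the minus strand for Igfn1, chr2:150689088-150689387 on the minus strand for Vsx1 and chr5:17962320-17962619 on the plus strand for Gnat3.
Igfn1: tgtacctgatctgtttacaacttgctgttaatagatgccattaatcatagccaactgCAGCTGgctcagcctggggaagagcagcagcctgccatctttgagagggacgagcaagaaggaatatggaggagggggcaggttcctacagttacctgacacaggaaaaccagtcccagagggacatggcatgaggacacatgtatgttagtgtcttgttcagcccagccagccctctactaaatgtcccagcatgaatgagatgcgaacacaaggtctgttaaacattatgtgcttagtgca
Vsx1: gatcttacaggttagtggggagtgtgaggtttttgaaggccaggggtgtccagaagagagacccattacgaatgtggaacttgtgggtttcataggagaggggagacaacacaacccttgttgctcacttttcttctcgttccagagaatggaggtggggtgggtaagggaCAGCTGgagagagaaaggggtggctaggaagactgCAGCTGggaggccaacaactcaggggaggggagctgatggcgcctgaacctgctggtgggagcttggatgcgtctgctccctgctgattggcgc
Gnat3: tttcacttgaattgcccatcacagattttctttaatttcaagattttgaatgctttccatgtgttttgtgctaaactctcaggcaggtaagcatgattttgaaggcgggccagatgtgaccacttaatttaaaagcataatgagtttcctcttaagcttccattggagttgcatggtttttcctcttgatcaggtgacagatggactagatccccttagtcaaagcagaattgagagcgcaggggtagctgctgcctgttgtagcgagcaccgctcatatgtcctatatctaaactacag
CAGCTG occurred once or more in 11 of 34 promoters of the 23 leading genes that matched the table (32.4%, 9 genes), against 16.3% of all 32851 promoters. TAATCC, a core of Crx and Otx2 sites, occurred in 1 of the 34 (that of Gm13601), against 7.06% of all promoters on either strand. TAATTA, a homeobox core, occurred in none, against 5.29%. Promoters of the same gene can overlap, so the 34 are not independent, and a match is only a description of these letters.

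Several transcription factors of bipolar cells were lower in the cluster. Of 17 listed factors that passed the minimum, 1 was higher (Vsx1) and 12 were lower, with a median log2 ratio of −1.85 against 0.03 over all compared genes. The nuclear factor I genes Nfia (90.7 and 52.5 CPM against 469 and 497 CPM) and Nfib (5.11 and 6.91 CPM against 263 and 234 CPM) were lower, as were Bhlhe23, a basic helix-loop-helix factor of rod bipolar cells (3.83 and 5.53 CPM against 107 and 114 CPM), and Meis2 (51.1 and 30.4 CPM against 256 and 270.4 CPM). Otx2 and Crx, which act in photoreceptors and bipolar cells, stood at 378 and 469 CPM and at 176 and 164 CPM, both within 2-fold.

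The mGluR6 cascade was mostly at the level of the other BC. Of its 11 members that passed the minimum none was higher and 2 were lower, with a median log2 ratio of 0.37. Besides Trpm1, the lower member was Rgs7, a GTPase-activating protein that turns off the G protein, at 128 and 98.1 CPM against 1064 and 1103 CPM. Rgs11, which acts beside it, was at 118 and 131 CPM against 92.5 and 91.7 CPM. The G protein subunits Gnao1 (925 and 1041 CPM), Gnb3 (1499 and 1532 CPM) and Gng13 (2464 and 3468 CPM) and the scaffold receptor Gpr179 (299 and 329 CPM) were within 2-fold, Gnb3 with a mean log2 ratio of 0.87. Nyx, which encodes nyctalopin, was below the minimum at 46.0 and 42.9 CPM.

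Receptor genes split by subunit. Among ionotropic glutamate receptors Gria2, an AMPA receptor subunit, was higher at 1018 and 963 CPM against 407 and 399.7 CPM, Gria1 was at 263 and 271 CPM against 149 and 179.9 CPM, and the kainate pair Grik1 and Neto1 was lower. Among 8 GABA and glycine receptor genes, Gabrr2, a subunit of the ionotropic GABA-C receptor on bipolar terminals, was higher at 946 and 952 CPM against 379 and 369 CPM. Gabrr3 and Glra1, a glycine receptor subunit, were lower, and Gabrr1 was at 133 and 145 CPM against 223 and 235 CPM. All 17 ribbon and release genes that passed were within 2-fold, with a median of 0.08. Examples were Ctbp2, whose product includes the ribbon protein ribeye, at 162 and 158 CPM against 142 and 141 CPM, Cacna1d, an L-type calcium channel, at 457 and 458 CPM against 316 and 401 CPM, and the complexin genes Cplx3 (577 and 759 CPM) and Cplx4 (567 and 629 CPM). Among 6 channel genes Kcnab1 alone passed 2-fold. Kcnma1, the BK channel, was at 4021 and 4090.3 CPM against 2531 and 2433 CPM.

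Adhesion and synaptic recognition genes differed in both directions. Of 19 that passed, 4 were higher and 12 lower, with a median log2 ratio of −3.42. The protocadherins Pcdh9 (9297 and 8598 CPM against 3282 and 2854 CPM) and Pcdh17, named above as a type 1A marker, and the cadherins Cdh9 (1427 and 1254 CPM against 186 and 195 CPM) and Cdh12 (853 and 846 CPM against 352 and 313 CPM) were higher. Lower members included Lrrtm4, Cntn4, the contactin Cntn5 (161 and 224 CPM against 1902 and 2108 CPM), Pcdh7 (14.0 and 18 CPM against 509 and 508 CPM), Cdh11 (20.4 and 18 CPM against 335 and 357 CPM) and the immunoglobulin superfamily genes Kirrel3 (3.83 and 9.68 CPM against 396 and 371 CPM) and Dscam. Tenm2 and Nrxn3, a teneurin and a neurexin, were within 2-fold.

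Over 6339 genes, cluster 19 was most like clusters 11 and 12 (Spearman rho of log2(CPM + 1) across genes of 0.847 and 0.841 for cluster 11, 0.843 and 0.835 for cluster 12, in Ptbp1-Ctrl and Ptbp1-KO) and least like cluster 10 (0.684 and 0.667). Genes are not independent replicates, so these are descriptions. Against cluster 11, 170 of 4205 genes were higher by 2-fold or more in both libraries (4.04%) and 185 lower (4.40%). Higher in cluster 19 were Hs3st4 (13.7 and 2.30 CPM in cluster 11), Il1rapl2 (24.8 and 8.06 CPM), Cdh9 (17.1 and 26.5 CPM), the muscarinic receptor gene Chrm3 (1238 and 1129 CPM against 14.5 and 11.5 CPM) and the dopamine receptor gene Drd2 (114 and 137 CPM against 2.56 and 1.15 CPM). Pcp2, a modulator of the G protein Go, was at 2050.0 and 1879 CPM in cluster 19 and 188 and 135 CPM in cluster 11. Lower in cluster 19 were Scgn (642 and 771 CPM in cluster 11), Cdh8 (25.5 and 53.9 CPM against 1175 and 1359 CPM) and the glutamate receptor gene Grin3a (6.39 and 16.6 CPM against 445 and 686 CPM). Against cluster 12, 198 of 4213 genes were higher (4.70%) and 180 lower (4.27%). Vsx1 stood at 4.42 and 5.20 CPM in cluster 12, the adhesion gene Sdk1 at 734 and 816 CPM against 21.0 and 5.20 CPM, and the homeobox gene Mkx at 128 and 116 CPM against 0 and 0.867 CPM. Kirrel3 (2326 and 1651 CPM in cluster 12), Cabp5 (1238 and 1357 CPM) and Sox6 (1284 and 1410.5 CPM) were lower in cluster 19. Over the 20 cluster and library pairs, the genes whose levels were most like those of Wnt4 were 1700041M19Rik, Npy1r (a neuropeptide Y receptor), Igfn1, Tacr1 and 4930512H18Rik, with Pearson r from 0.872 to 0.915 on log2(CPM + 1). The pairs come from 2 libraries and are not independent, so no test was made.

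The libraries were compared next, to ask how levels within these cells differ with loss of Ptbp1. Ptbp1, the targeted splicing repressor, had 13 UMIs in control cells and 0 in mutant cells in the cluster, a level of 16.6 CPM in Ptbp1-Ctrl. A UMI was seen in 13 of 194 cells of Ptbp1-Ctrl (6.70%, 3.62 to 11.2) and in 0 of 125 cells of Ptbp1-KO, for which the same Clopper-Pearson interval reaches 2.91% and 3 counts would be 2.40%. Set to the 3 counts that a count of 0 allows, the log2 ratio was at most −2.0. The other BC went from 191 UMIs to 1, a log2 ratio of −7.66 (−12.97 to −5.16). Rods of Ptbp1-Ctrl had a Ptbp1 UMI in 2.50% of cells, and after thinning the shares were 2.58% (0.842 to 5.91) in the cluster and 1.73% in rods, a share inside the interval of the cluster, so the level of the cluster was not distinguished from that of rods. In rods of Ptbp1-KO the share at full depth was 0.0323%. The paralog Ptbp2 was at 264 CPM in control cells and 235 CPM in mutant cells, a log2 ratio of −0.17 (−0.47 to 0.13).

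Few genes differed by 2-fold between the libraries. Of 4070 genes with a mean of at least 50 CPM and at least 50 UMIs, 18 were higher in Ptbp1-KO by 2-fold or more (0.442%) and 15 lower (0.369%), with a median log2 ratio of 0.01. The sum of the other BC, with 9006324 and 9515747 UMIs, had 3 higher (0.0722%) and 8 lower (0.193%) of 4154, and over the 4070 genes compared in cluster 19 it had 4 higher (0.0983%) and 7 lower (0.172%). Depth differs greatly between these sums, so the single clusters are the closer comparison. In both directions together the share was 0.811% in cluster 19 and from 0.658% to 1.22% in clusters 10, 13, 18 and 21, which held 571905 to 940405 UMIs per library. Cluster 19 was thus inside the range of BC clusters of like depth.

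Among the 12 lowest genes, Nwd2, Robo2 and Gm12132 were not lower in the sum of the other BC beyond counting error. Nwd2, which encodes a NACHT and WD repeat domain protein, had 116 UMIs in control cells and 8 in mutant cells, 148 and 11.1 CPM, a log2 ratio of −3.74 (−4.99 to −2.72). In the other BC it was at 113 and 129 CPM, a ratio of 0.18 (0.06 to 0.31), and over the 9 other clusters the ratio ran from −0.12 to 2.31. A Nwd2 UMI was seen at equal depth in 13.9% (9.38 to 19.6) of Ptbp1-Ctrl cells and 0.800% (0.0203 to 4.38) of Ptbp1-KO cells. Robo2, a receptor for Slit guidance cues, had 1035 UMIs in control cells and 415 in mutant cells, 1322 and 574 CPM, a log2 ratio of −1.20 (−1.37 to −1.04) against 0.02 (−0.04 to 0.07) in the other BC and −0.74 to 0.23 over the other clusters. Cluster 19 had the highest Robo2 level of the 10 clusters in Ptbp1-Ctrl and the sixth highest in Ptbp1-KO. At equal depth Robo2 was seen in 66.0% (58.8 to 72.6) of Ptbp1-Ctrl cells and 33.6% (25.4 to 42.6) of Ptbp1-KO cells, intervals that did not overlap, against 41.5% and 42.2% of the other BC. For both genes the counting interval of the cluster lay below 0, as for all of the 12 lowest genes, which were chosen by this ratio. Over the alternative scalings and cell filters the log2 ratio was −5.06 to −3.57 for Nwd2 and −1.66 to −1.20 for Robo2.

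Further lower genes were Zfhx3, a zinc finger homeobox factor, at 219.7 and 96.8 CPM (log2 ratio −1.18, interval −1.61 to −0.77, other BC −0.23), the cadherin Cdh20 at 323 and 151 CPM (−1.10, interval −1.44 to −0.77, other BC −0.23) and Pdzrn4, a PDZ and RING domain protein, at 75.4 and 31.8 CPM (−1.25, interval −2.01 to −0.53, other BC −0.73). Over the 9 other clusters the ratio ran from −1.10 to 1.81 for Zfhx3, −1.99 to 0.44 for Cdh20 and −3.23 to 1.47 for Pdzrn4. Single clusters thus had drops near or beyond those of cluster 19. With cells thinned to 1000 UMIs, Cdh20 (−0.90) and Pdzrn4 (−0.69) were no longer past 2-fold, while Zfhx3 was (−1.20). Other genes were lower in the sum of the other BC to a like degree. Snhg11, a noncoding host gene of small nucleolar RNAs, was at 489 and 218 CPM (−1.16, interval −1.44 to −0.89, other BC −1.29), and Gm47283 at 1449.7 and 229 CPM (−2.66, interval −2.90 to −2.42, other BC −2.46). Gm47283, annotated on chromosome Y, and Mid1 (−1.28, other BC −1.0), a gene that crosses the edge of the pseudoautosomal region, can share reads with near-identical copies, so both are uncertain. The Y-linked gene Ddx3y stood at 111 and 111 CPM. Gm12132 was at 80.5 and 38.7 CPM, a ratio of −1.06 (−1.75 to −0.39) against −0.08 (−0.49 to 0.33) in the other BC, and it was within 2-fold without the 5% of cells with most UMIs (−0.81) and with the mean of per-cell CPM (−0.98). Over the 9 other clusters its ratio ran from −2.03 in cluster 11 to 0.95 in cluster 5. The rest of the 12 lowest were 2810468N07Rik (−1.31, other BC −0.93), Gm9195 (−1.17, other BC −0.88) and Tmem243 (−1.12, other BC −0.95). Gm9195 was within 2-fold without the 10% of cells with most RNA of other types (−0.99), and Tmem243 with thinned cells (−0.95).

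Among the higher genes, Gm48606, an annotated lincRNA on chromosome 12, had 7 UMIs in control cells and 144 in mutant cells, a log2 ratio of 4.48 (3.40 to 5.82). Its ratio in the other BC was 2.10 (1.77 to 2.45), and it was seen at equal depth in 1.03% (0.125 to 3.67) of Ptbp1-Ctrl cells and 19.2% (12.7 to 27.2) of Ptbp1-KO cells. Plcb1, a phospholipase C, was at 235 CPM in control cells and 538 CPM in mutant cells, a ratio of 1.19 (0.94 to 1.46) against 0.24 (0.11 to 0.38) in the other BC, and the ratios of clusters 12, 13 and 18 were higher still (2.31, 2.11 and 2.34). Vit, the matrix protein vitrin, was at 24.3 and 92.6 CPM (1.93, interval 1.18 to 2.75, other BC 0.74), and Zfp365, a zinc finger gene, at 195 and 453 CPM (1.21, interval 0.93 to 1.5, other BC 0.81). Abhd14b, a hydrolase domain protein, had almost the same ratio in the cluster (1.37) and in the other BC (1.34). Kcnd2, an A-type potassium channel, was at 37.0 and 96.8 CPM (1.39, interval 0.74 to 2.06, other BC 0.44). Csmd2, a CUB and Sushi domain protein, was at 30.7 and 74.6 CPM (1.28, interval 0.57 to 2.04, other BC −0.31). With cells thinned to 1000 UMIs, Plcb1 was just under 2-fold at 0.97, and Kcnd2 (0.83), Abhd14b (0.76), Ggact (0.63), Brd7 (0.63) and Csmd2 (0.37) were lower than that. Kcnd2 was also within 2-fold without the 10% of cells with most RNA of other types (0.96), and Brd7 without the 5% of cells with most UMIs (0.93). The other higher genes were Gm12514 (1.45, other BC 1.07), 1700041M19Rik (1.18, other BC −0.16), Ggact (1.17, other BC −0.01), Brd7 (1.11, other BC 0.04) and Cbfa2t3 (1.11, other BC 0.40).

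**Figure D5:**
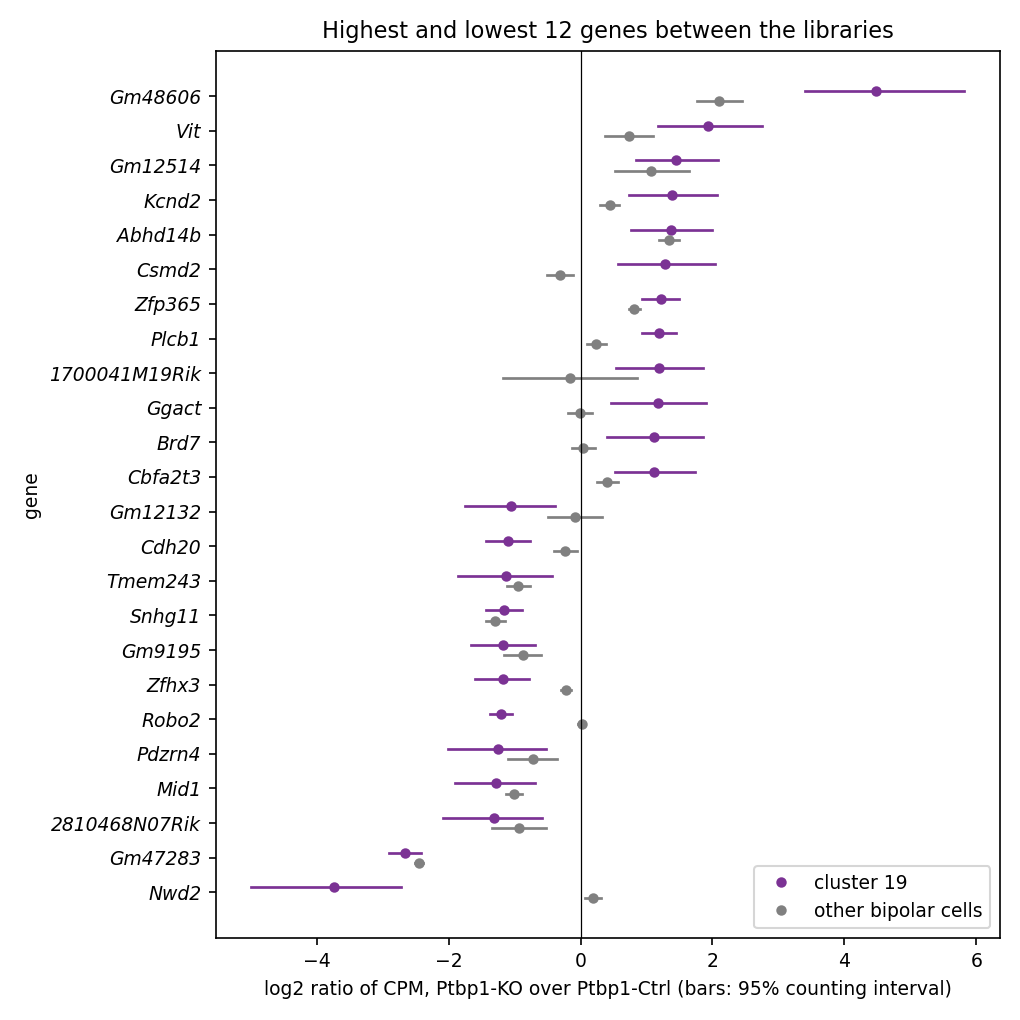
Log2 ratio of CPM, Ptbp1-KO over Ptbp1-Ctrl, for the 12 highest and the 12 lowest genes in cluster 19, with the other BC in grey and 95% counting intervals as bars. Nwd2 (−3.74) and Robo2 (−1.20) stand apart from the other BC (0.18 and 0.02), while Snhg11, Gm47283 and Abhd14b have like ratios in both.

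No list member that passed the minimum reached 2-fold between the libraries, beside 0.442% and 0.369% of all compared genes. Ratios were 0.07 (−0.12 to 0.26) for Vsx1, 0.08 (−0.18 to 0.35) for Igfn1, −0.14 (−0.36 to 0.09) for Grm6 and 0.16 (−0.01 to 0.33) for Trpm1. The median was 0.03 over 11 mGluR6 cascade genes, 0.06 over 17 ribbon and release genes and −0.07 over 10 splicing regulators, against 0.01 over all compared genes. Gng13 (0.49, interval 0.41 to 0.58, other BC 0.44) was the highest of the cascade, and Unc13b, a priming factor of synaptic vesicles (0.58, interval 0.34 to 0.82, other BC 0.23), the highest of the release genes. Nfia (−0.79, interval −1.40 to −0.20) and Pcdh17 (−0.49, interval −0.71 to −0.26) were lower, with intervals below 0, and Otx2 was higher (0.31, interval 0.08 to 0.54, other BC 0.23). The leading genes of the cluster ranged from −1.0 for Cntnap5c to 0.96 for 4930512H18Rik, with Fn1 at 0.84 (0.60 to 1.08).

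RNA of rods was present in the cluster, as in the other BC, and differed between the libraries. The 12 rod genes summed to 6838 CPM in Ptbp1-Ctrl and 5822 in Ptbp1-KO, below the other BC (10684 and 9080), and 11 of 12 had a ratio below 0, with a median of −0.25 in the cluster and −0.27 in the other BC. None of the 12 was at 0. The part of this RNA in the ratios of other genes was not tested. Leaving out the 10% of cells richest in RNA of other types, 20 control and 13 mutant cells, left 22 of the 24 named genes past 2-fold. That filter kept the rod RNA of the remaining cells, so it does not test this part. The 8 cone genes summed to 143 and 325 CPM, with Cnga3 at 0 in both libraries, and the 8 Müller glia genes to 279.7 and 269.6 CPM, with Sox9 at 0 in Ptbp1-Ctrl. The 10 amacrine genes summed to 16.6 and 23.5 CPM (Gad1 and Slc32a1 at 0 in Ptbp1-Ctrl, C1ql1 and C1ql2 at 0 in Ptbp1-KO), the 8 ganglion cell genes to 1.28 and 4.15 CPM (Pou4f1, Pou4f2 and Slc17a6 at 0 in both) and the 6 microglia genes to 11.5 and 15.2 CPM (C1qa, C1qb, Tmem119 and Csf1r at 0 in both). The 6 horizontal cell genes summed to 146.9 and 110.6 CPM, mostly Sept4, with Onecut1 at 0 in both.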

How the data were processed

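Droplet single-cell RNA sequencing had been carried out on P30 mouse retina with 10x Genomics 3′ version 3.1 chemistry, 1 library per genotype. The authors aligned reads to mm10 with Cell Ranger 7.0.1 and deposited raw UMI counts for 25778 genes and 30943 cells. Per cell they also deposited the summed count, the number of detected genes, the percent of mitochondrial UMIs, cluster numbers and cell type names. Per the methods, cells with over 200 and under 5000 genes, over 700 and under 10000 UMIs and under 20% mitochondrial share were kept in Seurat, which all 30943 deposited cells met, and were clustered on 12 components of 4000 variable genes. The annotation, the use of intronic reads and any removal of doublets were not given in the sources used here. No doublets were called here. A further 2 columns of per-cell labels were not used.

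Samples were assigned to genotypes from the genotype label and cells to samples from the deposited sample name. UMIs were summed per sample and cluster in Python 3.11.15 (NumPy 2.4.6, SciPy 1.17.1, pandas 2.3.3) and expressed as CPM with exact Poisson intervals. Ratios between libraries carry exact conditional binomial intervals, and shares of cells Clopper-Pearson intervals, at 95%. A count of 0 was set to 3 counts in ratios and list medians, and the same 3 counts gave the limit on a share of 0. No test was run, since cells of 1 library are not replicates, and the Wilcoxon test over cells used by the study was not repeated. The design fixed the named genes as Ptbp1, Ptbp2, the 5 label markers, 38 gene lists (234 genes, among them splicing regulators, stress genes and other cell types), the 25 highest and 10 lowest genes of the cluster, the 12 highest and 12 lowest between libraries and the 5 genes most like the leading gene. The genes named against clusters 11 and 12 came from the largest differences there and were chosen after their values were seen, as were the sex-linked genes and the genes most like Vsx1. The members, lists and comparisons were chosen with earlier results of these data known. Gene places came from GENCODE vM21 (GRCm38) and promoters from RefSeq. Results for some genes are not reported here. The ratio and its interval were checked on simulated data. Alternatives used edgeR 4.0.16 and DESeq2 1.42.0 scaling factors in R 4.3.3.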

Additional observations from a re-analysis of the deposited data

Results flagged for a closer look

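The ratios between the libraries went opposite ways in cluster 19 and in the sum of the other BC for 4 of the genes reported here, with counting intervals on opposite sides of 0. The difference between the ratios was not tested, since there was 1 library per genotype, and the mix of clusters in that sum differed between the libraries. For Nwd2 the log2 ratio was −3.74 (−4.99 to −2.72) in the cluster and 0.18 (0.06 to 0.31) in the other BC, and 6 of the 9 other clusters were above 0, over a range of −0.12 to 2.31. Csmd2 stood at 1.28 (0.57 to 2.04) against −0.31 (−0.50 to −0.12), with 6 of 9 clusters below 0 (−1.01 to 0.62), and its ratio in the cluster was 0.37 with cells thinned to 1000 UMIs. Nfia stood at −0.79 (−1.40 to −0.20) against 0.08 (0.02 to 0.14), with −1.88 to −0.37 over the alternatives, but 5 of the 9 other clusters were below 0 too (−0.59 to 0.68). Pcp2 stood at −0.13 (−0.23 to −0.02) against 0.10 (0.07 to 0.13), but 7 of the 9 other clusters were below 0 as cluster 19 was (−0.48 to 0.20), so the opposite direction did not hold across clusters. Cluster 5, the highest for Pcp2 (5862 and 5795 CPM), was 24.1% of BC in Ptbp1-Ctrl and 27.1% in Ptbp1-KO, and the part of this in the summed ratio was not tested.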

How the results depend on the processing

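Cell-level and gene-level choices changed counts more than directions, but sizes shifted too. Of the gene ratios against the other BC under the alternatives, 99 lay outside the counting interval of the value given above and 281 inside. Those alternatives include other comparison clusters. Between the libraries 10 lay outside and 206 inside. The share of BC in the cluster kept a ratio below 1 with every denominator and with cells of at least 1000 UMIs, from 0.729 to 0.807. Of the 24 genes named between libraries, all 24 stayed past 2-fold with edgeR TMM factors, DESeq2 size factors, CPM without mitochondrial and rod genes and with the library-wide profile subtracted, 23 with the mean of per-cell CPM, 22 without the 5% of cells with most UMIs, 22 without the 10% of cells with most RNA of other types and 15 with cells thinned to 1000 UMIs. The 24 were chosen as the extremes of this ratio, so these counts are a description. The edgeR and DESeq2 factors shifted every log2 ratio by only 0.016 and 0.053. Gm12132, the nearest to 2-fold, stood at −1.06, so neither factor could bring a named gene within 2-fold. No named ratio changed sign. With thinned cells 5 genes were higher in Ptbp1-KO and Vsx1 stood at 577 CPM, against 18 genes and 616 CPM. With no CPM minimum but at least 10 UMIs, 2079 genes were higher and 790 lower than in the other BC, while between libraries 467 were higher and 435 lower in the mutant. With at least 200 CPM these counts were 63, 95, 3 and 5. Without the 10% of cells with most RNA of other types, 23 genes were lower in Ptbp1-KO. With the profile subtracted (21.2% and 20.1% of the UMIs of the cluster), 30 were higher, 30 lower and Vsx1 stood at 758 CPM. The cause of these shifts was not tested, except that another minimum compares other genes. Against the other BC, 37 named genes stayed past 2-fold under each setting, except Trpm1 with clusters weighted equally and Trpm1 and Cep112 against the 2 most alike clusters. Most of the 37 were chosen for the size of this ratio. The edgeR and DESeq2 factors shifted it by at most 0.051 in log2, so those settings could hardly change the count. No paired analysis was possible because each genotype had 1 library. With 125 cells in Ptbp1-KO, genes of few UMIs could not be compared.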

Other observations

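Over the 20 cluster and library pairs, the genes whose levels were most like those of Vsx1 were Adra2c, Plcb1, Ube2q2, Psd3 and Trhde, with Pearson r of log2(CPM + 1) from 0.863 to 0.917. Among regulators of splicing, 10 passed the minimum between libraries. Celf4, a CELF family protein, was at 304 and 379 CPM, a log2 ratio of 0.32 (0.06 to 0.57), and Mbnl1, a muscleblind protein, at 201 and 179.7 CPM, a ratio of −0.16 (−0.50 to 0.19). Srrm4, an activator of neuronal microexons, was at 515 and 489 CPM, and Nova1 at 151 and 155 CPM, both with intervals that included 0. Of 13 genes of dissociation stress 2 passed the minimum, and neither reached 2-fold between libraries. Most members below the minimum had a ratio above 0, such as Egr1 (2.92) and Jun (2.15), while Hspa1b was below 0 (−0.62). Together the 13 summed to 674 and 759 CPM in the cluster, against 774 and 843 CPM in the other BC.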
